A study of Homo sapiens with 6 samples.

Results

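Expression of 9 genes that describe the balance between epithelial and mesenchymal states was followed in H2122, a line of human lung adenocarcinoma cells, with and without an shRNA against LYCAT. They are 3 classical cadherins (CDH1, CDH2 and CDH3), 5 transcription factors of the epithelial-mesenchymal transition, or EMT (SNAI1, SNAI2, TWIST1, ZEB1 and ZEB2), and VIM, which encodes the filament protein vimentin. The genes were taken by symbol, and all 9 were present among the 23368 genes of the deposited count table. Of these 9, 7 passed the filter on low counts and were tested with 11097 genes in all, and ZEB2 and TWIST1 were too low to test.

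The groups were 3 libraries of H2122 cells transfected with control shRNA and 3 of the same cells transfected with LYCAT shRNA, with RNA taken after 48 hours. LYCAT is an older name of LCLAT1, an acyltransferase of cardiolipin and phosphatidylinositol. The labels do not say whether replicates were separate cultures, so p-values reflect only differences among these libraries, and those may be technical. Other effects of the shRNA cannot be told apart from those of lower LCLAT1.

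Cadherins are calcium-dependent adhesion proteins that join neighbouring cells and bind catenins inside the cell. E-cadherin, from CDH1, holds epithelial sheets together, whereas N-cadherin, from CDH2, is typical of mesenchymal and neural cells, and carcinoma cells in EMT often exchange the first for the second. SNAI, ZEB and TWIST proteins bind E-box motifs in DNA, and SNAI and ZEB proteins repress CDH1 and other epithelial genes. The factors can repress or induce one another, and vimentin is the filament most used to mark mesenchymal cells.

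Library totals ran from 4075367 to 4930079 counts with control shRNA and from 3118946 to 4730453 with LYCAT shRNA. Levels are given as CPM, counts per 1000000 counts of the scaled library size. The target LCLAT1 was at 56.8, 61.2 and 65.3 CPM in control replicates 1 to 3 but only 18.9, 22.6 and 23.6 CPM with LYCAT shRNA, so its reduction was partial. Epithelial markers were present in all 6 libraries, with EPCAM at 616 to 661 CPM. The keratin genes KRT18 and KRT7 were at 396 to 541 and 247 to 336 CPM. Lower levels were seen for KRT8 (52.9 to 90 CPM), CDH1 (49.7 to 71.2 CPM) and KRT19 (36.4 to 52.8 CPM). Some of these markers fell with LYCAT shRNA, as given below. Fibronectin, collagen and some other mesenchymal genes stood apart in control replicates 1 and 2, where they were high. Their values are given with VIM.

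Of the 7 tested members, CDH2 and SNAI2 rose and CDH1 fell with LYCAT shRNA, while CDH3, SNAI1, ZEB1 and VIM did not pass (edgeR quasi-likelihood test, Benjamini-Hochberg adjusted p under 0.05 over all tested genes). Over all 11097 tested genes 19.1% passed, 9.81% as higher and 9.26% as lower, and a count of 3 of 7 members is too small to set apart from that share. The groups did not overlap for the same 3 members, against 32.8% of all tested genes. Of these 3, only CDH2 kept its call in all 15 alternative analyses, and only CDH2 passed without control replicates 1 and 2. CDH1 and SNAI2 passed with all libraries, but both calls were lost with DESeq2 and with several single libraries left out.

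**Figure D1:**
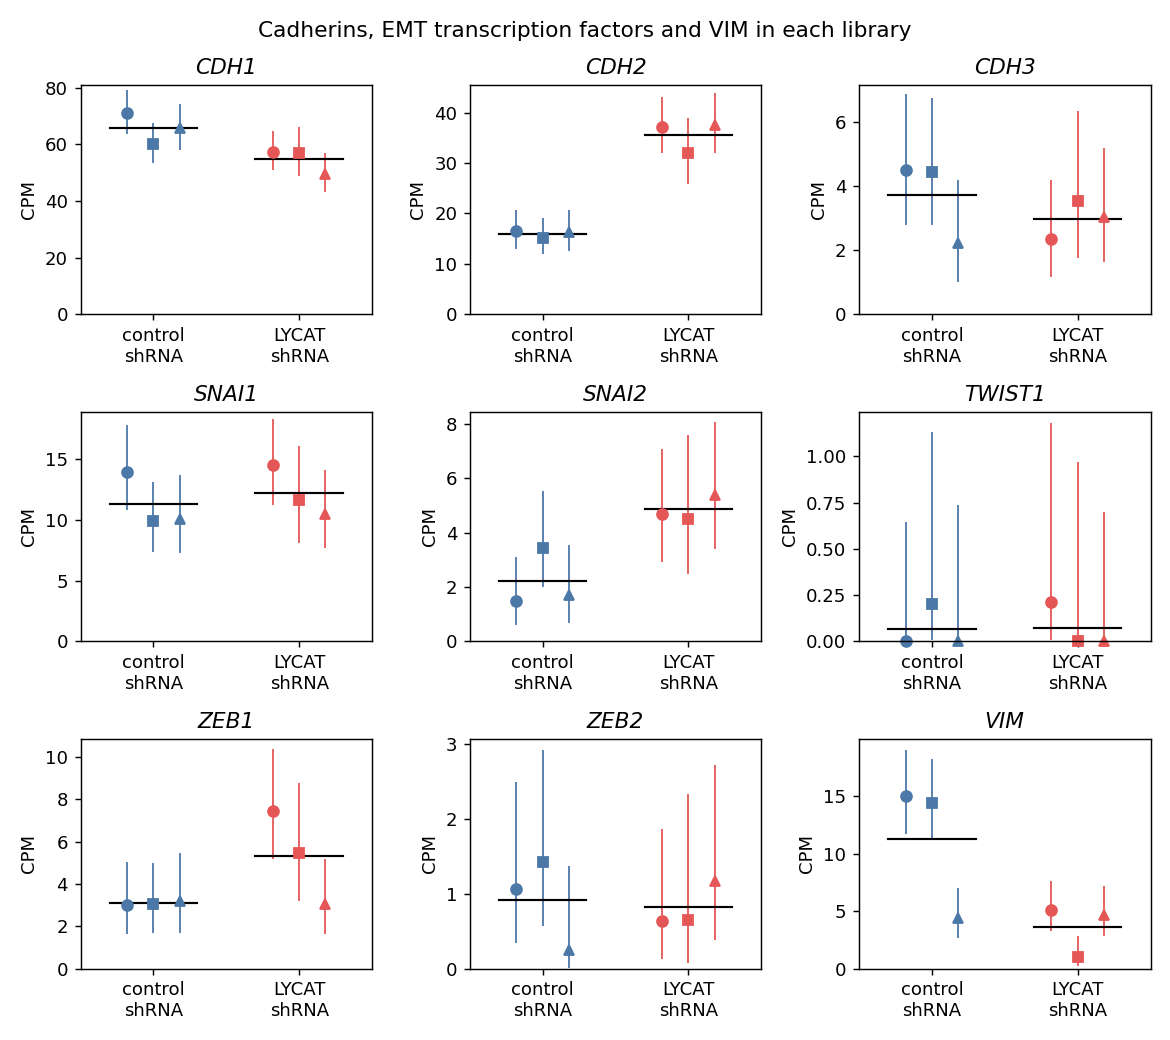
Level of each of the 9 genes in CPM in every library (circle, square and triangle for replicates 1, 2 and 3; blue for control shRNA, red for LYCAT shRNA), with exact 95% Poisson intervals of the counts, which cover counting error only (a count of 0 is drawn up to 3 counts), and group means as black lines. CDH2 lies at 15.2 to 16.5 CPM in controls and 31.9 to 37.6 CPM with LYCAT shRNA, whereas VIM in control replicate 3 lies among the LYCAT shRNA libraries.

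CDH2 showed the clearest change. Its level was 16.5, 15.2 and 16.3 CPM in control replicates 1 to 3 (77, 75 and 66 counts) and 37.2, 31.9 and 37.6 CPM with LYCAT shRNA (175, 99 and 161 counts). Every LYCAT shRNA library was higher than every control, and within each group the highest library was 1.09 and 1.18 times the lowest. The mean went from 16.0 ± 0.691 to 35.6 ± 3.17 CPM (SD, n = 3 each), a 2.24-fold rise with a 95% interval of 1.86 to 2.70. The log2 fold change was 1.17 (SE 0.134, edgeR adjusted p = 5.55e-11). It ranged from 1.13 to 1.23 over the alternatives, and it was 1.14 without control replicates 1 and 2 (edgeR adjusted p = 3.84e-05).

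CDH1 remained the most abundant cadherin and fell by a small amount. It stood at 71.2, 60.2 and 65.8 CPM in the controls (332, 297 and 267 counts) and at 57.4, 57.1 and 49.7 CPM with LYCAT shRNA (270, 177 and 213 counts). The groups did not overlap, but the lowest control and the highest LYCAT shRNA library were only 60.2 and 57.4 CPM. The mean went from 65.7 ± 5.48 to 54.7 ± 4.34 CPM (SD, n = 3 each), 83.3% of the control, with a log2 fold change of -0.26 (SE 0.0931, edgeR adjusted p = 0.0345). The call was lost when control replicate 1 (edgeR adjusted p = 0.204) or 3 (0.0824) was left out, or LYCAT shRNA replicate 1 (0.0588), 2 (0.0559) or 3 (0.237), and with DESeq2 (0.153). The direction was the same in all 15 alternatives, with log2 values of -0.33 to -0.19.

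CDH3, which encodes P-cadherin of basal epithelial cells, was low. It had 21, 22 and 9 counts in the controls (4.50, 4.46 and 2.22 CPM) and 11, 11 and 13 with LYCAT shRNA (2.34, 3.55 and 3.04 CPM). The groups overlapped, since control replicate 3 was the lowest of the 6 libraries. The log2 fold change of -0.38 had a 95% interval of -1.08 to 0.33 (edgeR adjusted p = 0.512), and levels from 0.472 to 1.25 times the control could not be told apart at this depth. The value was 0.39 without control replicates 1 and 2.

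Within a library, the balance between the cadherins shifted towards CDH2. CDH2 made up 17.9% (exact 95% binomial interval 14.4 to 21.9), 19.0% (15.3 to 23.3) and 19.3% (15.3 to 23.9) of the summed counts of the 3 cadherin genes in control replicates 1 to 3. With LYCAT shRNA its share was 38.4% (33.9 to 43.0), 34.5% (29 to 40.3) and 41.6% (36.6 to 46.7). The intervals, which cover counting error only, of all control libraries lay below those of all LYCAT shRNA libraries. The share of CDH1 was 75.4% to 78.1% in the controls and 55.0% to 61.7% with LYCAT shRNA, and that of CDH3 was 2.41% to 5.58% over all 6 libraries. The difference of log2 CPM between CDH2 and CDH1 went from -2.01 ± 0.0645 to -0.62 ± 0.215 (SD, n = 3 each). Its shift of 1.39 ranged from 1.28 to 1.5 with any 1 library left out. Most of this shift came from CDH2, whose log2 fold change was 1.17 against -0.26 for CDH1. In bulk RNA, fewer or more cells with a transcript and less or more of it per cell cannot be told apart.

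**Figure D2:**
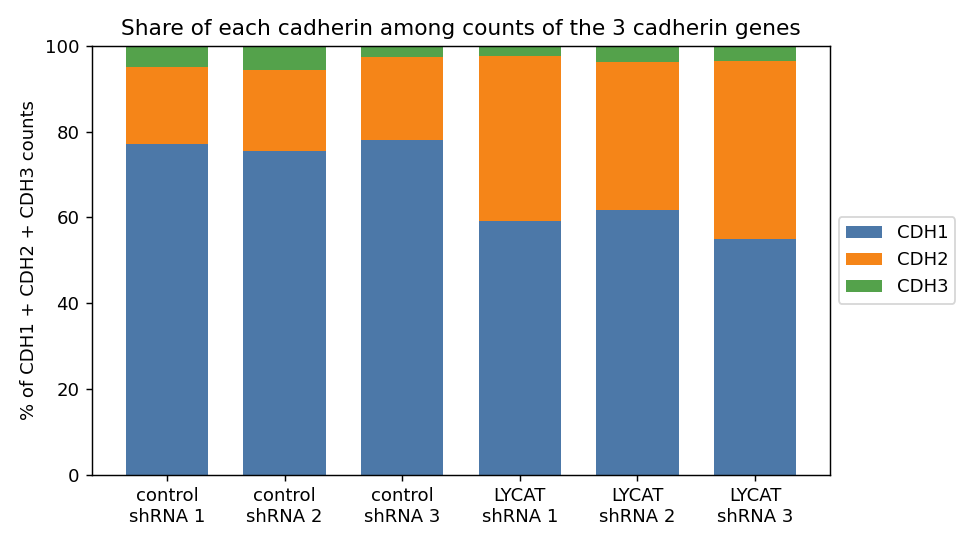
Share of CDH1, CDH2 and CDH3 in the summed counts of these 3 genes in each library, in percent, not scaled by gene length. CDH2 holds 17.9% to 19.3% in the control libraries and 34.5% to 41.6% in the LYCAT shRNA libraries.

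None of a list of 19 other CDH genes, mostly of the classical and type II families, had enough counts to test. Of these, CDH11, a mesenchymal cadherin, was the most abundant, at 1.14 CPM in controls and 0.803 CPM with LYCAT shRNA. The endothelial cadherin CDH5 had 0 counts in every library. Among 7 desmosomal cadherins 2 were tested. DSC2, a desmocollin, fell from 63.8 ± 1.14 to 52.7 ± 2.23 CPM (log2 -0.28, edgeR adjusted p = 0.0222), a call lost without control replicate 1 (0.0502) or LYCAT shRNA replicate 1 (0.13), and DSG2, a desmoglein, stayed at -0.08 on that scale (edgeR adjusted p = 0.506).

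Genes for the proteins that tie cadherins to actin were examined next. Of 14 tested catenins and adherens junction linkers 1 passed, or 7.14% against 19.1% of all tested genes. The median log2 value of the list was -0.043, where that of all tested genes was -0.00573. The gene that passed, VCL, encodes vinculin, which couples the junction to actin. It went from 109 ± 1.63 to 134 ± 5.08 CPM, a 1.23-fold rise (edgeR adjusted p = 0.000711). The beta-catenin gene CTNNB1 had a log2 fold change of -0.05 (SE 0.0521) and the alpha-catenin gene CTNNA1 one of -0.00191 (SE 0.0523), and neither passed. A further gene of this list passed as higher without control replicate 1. Of 16 genes of cadherin cleavage, endocytosis and turnover 1 rose and 1 fell, or 12.5%. Both belong to gamma-secretase, the protease that cuts cadherins within the membrane. PSEN2, a catalytic subunit, rose from 15.5 ± 2.22 to 25.3 ± 2.24 CPM (log2 0.70, edgeR adjusted p = 0.000245). NCSTN, the nicastrin subunit, fell from 51.2 ± 7.43 to 35.6 ± 3.00 CPM (log2 -0.53, edgeR adjusted p = 0.000173).

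SNAI2, which encodes the repressor Slug, was the transcription factor that passed. It had 7, 17 and 7 counts in control replicates 1 to 3 (1.5, 3.45 and 1.72 CPM) and 22, 14 and 23 with LYCAT shRNA (4.68, 4.51 and 5.37 CPM). The groups did not overlap, and control replicate 2 lay closest to the LYCAT shRNA libraries. The mean went from 2.22 ± 1.06 to 4.85 ± 0.455 CPM (SD, n = 3 each), with a log2 fold change of 1.10 (SE 0.352, edgeR adjusted p = 0.0188) and a 95% interval of 1.32-fold to 3.48-fold. The call was lost without control replicate 1 (edgeR adjusted p = 0.12) or 3 (0.0806), without LYCAT shRNA replicate 1 (0.0621) or 3 (0.0967), and with DESeq2 (0.117). The log2 value was 1.58 without control replicate 2 and 0.87 without control replicate 1.

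SNAI1, which encodes the related repressor Snail, was more abundant than SNAI2 and did not pass. Its level was 13.9, 9.93 and 10.1 CPM in the controls (65, 49 and 41 counts) and 14.5, 11.6 and 10.5 CPM with LYCAT shRNA (68, 36 and 45 counts). The groups overlapped almost fully. The log2 fold change was 0.12 (SE 0.194, edgeR adjusted p = 0.742), with a 95% interval of 0.829-fold to 1.42-fold. SNAI1 protein is controlled largely by its breakdown, which counts of RNA do not measure.

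ZEB1, a zinc finger repressor of epithelial genes, was even among the controls and uneven with LYCAT shRNA. It had 14, 15 and 13 counts in the controls (3.00, 3.04 and 3.20 CPM) and 35, 17 and 13 with LYCAT shRNA (7.44, 5.48 and 3.04 CPM). LYCAT shRNA replicate 3 lay within the control range and the other 2 lay above it. The log2 fold change was 0.80 (SE 0.327, edgeR adjusted p = 0.077). ZEB1 and the 3 members that passed were the 4 tested members with an unadjusted p under 0.05. Without LYCAT shRNA replicate 3 the value was 1.10 and passed (edgeR adjusted p = 0.0238), and without LYCAT shRNA replicate 1 it was 0.42.

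ZEB2 and TWIST1 were near the limit of detection. ZEB2, the paralog of ZEB1, had 5, 7 and 1 counts in the controls and 3, 2 and 5 with LYCAT shRNA, or 13 and 10 in all. TWIST1, a basic helix-loop-helix factor of mesoderm, had 1 count in control replicate 2, 1 in LYCAT shRNA replicate 1 and 0 in the other 4 libraries. A count of 0 allows a level of up to 0.643 to 0.967 CPM in those 4 libraries (3 counts each, counting error only). Neither gene was measured well enough to compare the groups.

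**Figure D3:**
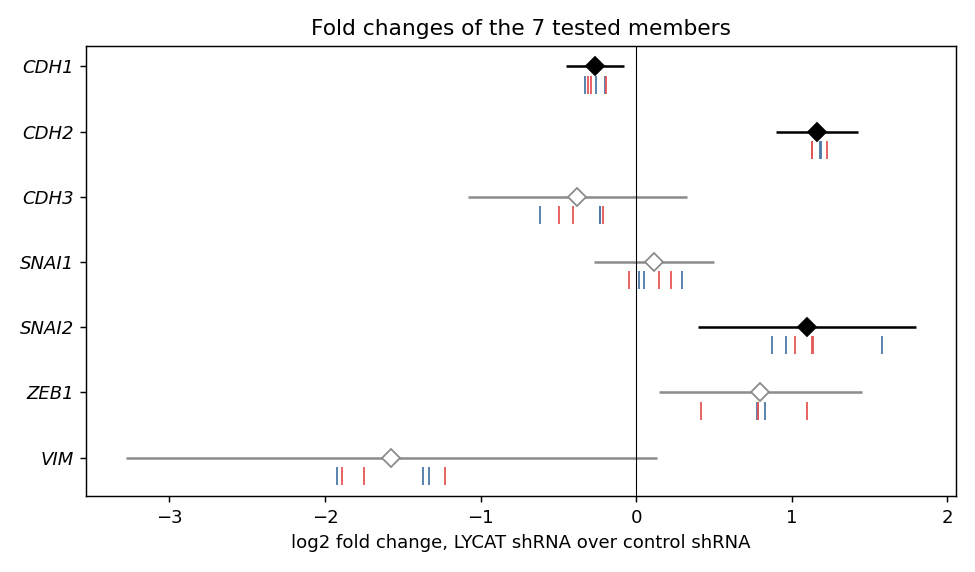
Log2 fold change of LYCAT shRNA over control shRNA for the 7 tested members, as diamonds with 95% intervals (filled where the edgeR adjusted p is under 0.05). Ticks below each diamond are the values with a single library left out (blue for a control, red for a LYCAT shRNA library). CDH2 keeps within 1.13 to 1.23, while the interval of VIM runs from -3.28 to 0.13.

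VIM was uneven between libraries of the same group. It stood at 15, 14.4 and 4.43 CPM in control replicates 1 to 3 (70, 71 and 18 counts) and at 5.10, 0.967 and 4.67 CPM with LYCAT shRNA (24, 3 and 20 counts). Control replicates 1 and 2 were high and LYCAT shRNA replicate 2 was very low. Control replicate 3 lay between LYCAT shRNA replicates 1 and 2 and close to replicate 3. The highest library was 3.38 times the lowest among the controls and 5.28 times among the LYCAT shRNA libraries, far more than for CDH1 (1.18 and 1.15 times).

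The means of VIM were 11.3 ± 5.93 and 3.58 ± 2.27 CPM (SD, n = 3 each), and the log2 fold change was -1.57 (SE 0.661, edgeR adjusted p = 0.193). VIM thus had the largest fitted value of the 7 tested members and did not pass. The value depended on which controls were used: it was -1.92 without control replicate 3 (edgeR adjusted p = 8.03e-07) and -0.20 without control replicates 1 and 2 (0.869). It also passed as lower with limma-voom (adjusted p = 0.00682), with robust=FALSE in edgeR (0.000513) and with no filter on low counts (3.9e-05), but not with DESeq2 (0.192).

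Matrix genes moved with VIM between the libraries. FN1, fibronectin, stood at 92.6, 162 and 19.7 CPM in the controls and at 31.7, 8.71 and 20.3 CPM with LYCAT shRNA. COL1A1, a collagen I chain, had 59.4, 82.7 and 28.3 CPM in the controls against 25.9, 16.4 and 22.9 CPM. COL1A2, the other chain, had 14.4, 23.9 and 0.985 CPM against 5.53, 1.61 and 4.44 CPM. As for VIM, control replicates 1 and 2 were highest for all 3 genes. LYCAT shRNA replicate 2 was lowest for FN1 and COL1A1 and control replicate 3 for COL1A2.

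Of 20 markers of fibroblasts, endothelium and blood cells, 8 to 12 had 0 counts in each control library and 8 to 13 in each LYCAT shRNA library. Their summed level was 35.5 to 138 CPM in the controls and 25.5 to 43.4 CPM with LYCAT shRNA, and COL1A1 with COL1A2 made up 70.9% to 82.6% of it. PECAM1, CDH5, PTPRC, CD3E and FAP, the last a marker of activated fibroblasts, had 0 counts in every library, and the fibroblast gene DCN had 1 count in all. Other markers were present: the fibroblast genes COL3A1, LUM and THY1 had 161, 40 and 40 counts in all, CD68 of blood cells 104 and the endothelial gene TEK 19. LUM, THY1, CD68 and TEK had counts in every library. COL3A1 averaged 9.51 CPM in controls and 1.74 CPM with LYCAT shRNA (edgeR adjusted p = 0.31). Of the 4 markers tested 0 passed in the main edgeR fit, while 3 passed as lower without control replicate 3, 2 with limma-voom and 1 with DESeq2. With robust=FALSE in edgeR, COL1A1 (adjusted p = 8.37e-07) and COL1A2 (0.0028) passed as lower. With no filter on low counts, 1 of 15 markers was lower. The part of these genes, or of other cells, in the values of VIM was not tested.

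**Figure D4:**
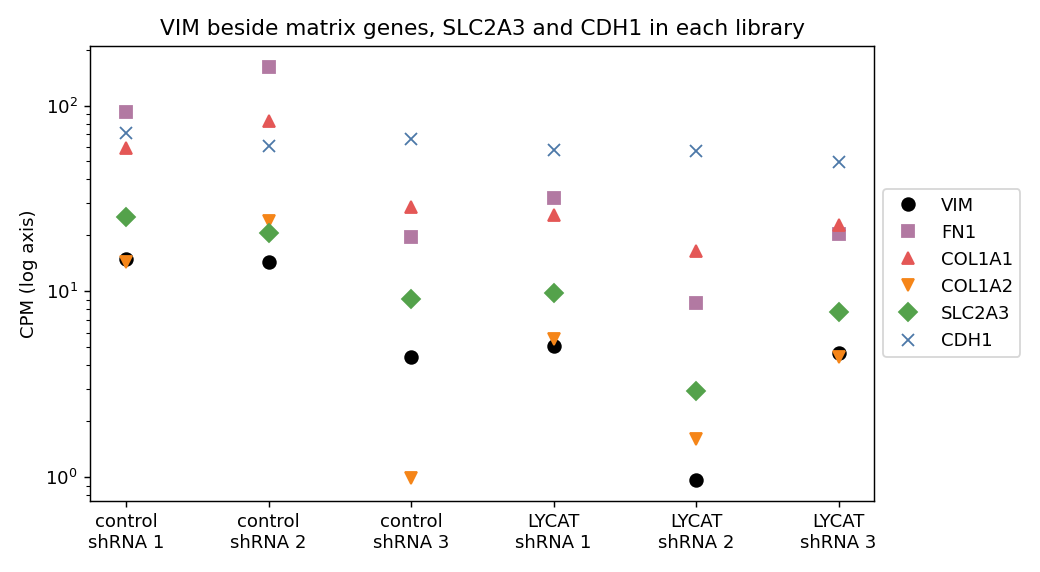
Level of VIM, the matrix genes FN1, COL1A1 and COL1A2, SLC2A3 and CDH1 in each library, in CPM on a log axis. VIM, the matrix genes and SLC2A3 are high in control replicates 1 and 2, where VIM is at 15 and 14.4 CPM, and CDH1 keeps between 49.7 and 71.2 CPM in all 6 libraries.

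Scaled by exon length, CDH1, SNAI1 and CDH2 had the highest means, in that order, in both groups. Below them some neighbours changed places between the groups, but those that did overlapped in the controls. Lengths are the merged exons of each gene in GENCODE v29, which is not the annotation behind the counts, so these levels in CPM per kilobase are approximate. In the controls CDH1 led with 10.6 ± 0.887, followed by SNAI1 with 6.70 ± 1.34, CDH2 with 3.23 ± 0.140 and VIM with 2.19 ± 1.15 CPM per kilobase (SD, n = 3 each). The libraries of these neighbours did not overlap. SNAI2, CDH3 and ZEB1 followed with 0.656, 0.597 and 0.356 CPM per kilobase, and VIM, SNAI2, CDH3 and ZEB1 overlapped each with the next. With LYCAT shRNA, CDH1 stood at 8.86 ± 0.702, SNAI1 at 7.21 ± 1.21 and CDH2 at 7.19 ± 0.640 CPM per kilobase. CDH1 overlapped with SNAI1, and SNAI1 with CDH2, but CDH1 and CDH2 did not overlap. CDH1 was 3.17 to 3.45 times as abundant as CDH2 per kilobase in the control libraries and 1.06 to 1.43 times in the LYCAT shRNA libraries. SNAI2, at 1.43 ± 0.134, then stood above VIM, ZEB1 and CDH3, which overlapped with one another at 0.694, 0.615 and 0.477 CPM per kilobase.

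Other EMT transcription factors changed in both directions. Of 9 tested, 2 rose and 1 fell, or 33.3% that passed against 19.1% of all tested genes, and the list median was 0.17. ETS1 rose 2.63-fold from 2.28 ± 0.165 to 5.96 ± 0.731 CPM (log2 1.4, edgeR adjusted p = 0.000912), and HMGA2, a chromatin protein that can induce SNAI1 and TWIST1, rose 1.38-fold from 27.9 ± 3.39 to 38.7 ± 1.94 CPM (edgeR adjusted p = 0.00188). TCF4, an E protein that pairs with other basic helix-loop-helix factors, fell 1.69-fold from 28.8 ± 0.322 to 17.1 ± 0.579 CPM (edgeR adjusted p = 1.9e-05). FOXC2 and TWIST2 had 0 counts in every library.

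Among factors that hold the epithelial state, none passed as higher with edgeR, and 45.5% of those tested passed against 19.1% of all tested genes. Of 11 tested, 5 fell and 0 rose, and the list median was -0.22 with 4 to 6 lower when 1 library was left out and 3 lower with DESeq2 or without control replicates 1 and 2. OVOL2, a repressor of ZEB1, went from 19.5 ± 2.39 to 11.6 ± 2.07 CPM, a 1.66-fold fall (edgeR adjusted p = 0.000988). RBM47, an RNA-binding protein, fell 1.18-fold from 167 ± 9.50 to 141 ± 4.53 CPM (edgeR adjusted p = 0.00424). KLF5 fell 1.22-fold from 122 ± 12.8 to 100 ± 4.13 CPM (edgeR adjusted p = 0.00324), a call lost without control replicate 3 (0.0555). The splicing regulator ESRP1 (log2 -0.22) and GRHL2 (log2 -0.46), an activator of CDH1, also fell and were chosen for naming with values in view. ESRP1 did not pass without LYCAT shRNA replicate 2 (edgeR adjusted p = 0.11), nor GRHL2 without LYCAT shRNA replicate 1 (0.111), and neither passed with DESeq2 (0.0523 and 0.0848). ELF3, also named after its value was seen, stood higher with LYCAT shRNA in all libraries but did not pass (log2 0.63, edgeR adjusted p = 0.113).

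Epithelial genes that SNAI and ZEB factors are known to repress formed another list. Of 20 tested, 6 fell and 0 rose, or 30% that passed against 19.1% of all tested genes, and the list median was -0.16. The count was 2 without control replicate 1, 3 without LYCAT shRNA replicate 3 and 9 without control replicate 2, and 2 with DESeq2 or without control replicates 1 and 2, so it is imprecise. CGN, the tight junction protein cingulin, went from 14.2 ± 2.34 to 7.82 ± 1.45 CPM, a 1.79-fold fall (edgeR adjusted p = 0.00141). DSP, the desmosomal plaque protein desmoplakin, fell 1.16-fold from 270 ± 12.9 to 233 ± 8.88 CPM (edgeR adjusted p = 0.00274). PRSS8, a membrane protease, fell 1.54-fold from 13.0 ± 0.989 to 8.26 ± 1.30 CPM (edgeR adjusted p = 0.0196), a call lost when control replicate 1 (0.0793), control replicate 3 (0.0502) or LYCAT shRNA replicate 2 (0.097) was left out. EPCAM (log2 -0.05), CLDN4 (-0.08) and CLDN7 (-0.14), named after their values were seen, did not pass.

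Sequence before the start site was examined for the E-box that SNAI and ZEB proteins bind, CACCTG or, on the other strand, CAGGTG, in RefSeq promoters (GRCh38.p14). The table matched 4 of the 9 members, CDH2, VIM, ZEB1 and ZEB2. Over 35116 promoters, 17.5% held at least 1 match within 250 bases before the start and 2.53% at least 2. Of 20 promoters for 15 of the epithelial genes above, 11 held at least 1 match and 7 at least 2, or 55% and 35%. The 2 MUC1 promoters among them overlap almost fully and hold the same matches. These genes were listed as known to be repressed by these factors, so the share describes the list. The 2 promoters of CDH2, 1 of VIM and 1 of ZEB2 held no match, and 2 of 7 promoters of ZEB1 did. The sequences below, 5′ to 3′ on the gene's strand with matches in capitals, are of 3 epithelial genes and of CDH2, the member that rose most clearly. All 3 epithelial promoters shown hold matches and do not stand for the list, where others, that of CGN among them, held none. AP1M2 is an adaptor of epithelial sorting and CLDN7 a tight junction claudin.
AP1M2, chr19:10587313-10587562, minus strand: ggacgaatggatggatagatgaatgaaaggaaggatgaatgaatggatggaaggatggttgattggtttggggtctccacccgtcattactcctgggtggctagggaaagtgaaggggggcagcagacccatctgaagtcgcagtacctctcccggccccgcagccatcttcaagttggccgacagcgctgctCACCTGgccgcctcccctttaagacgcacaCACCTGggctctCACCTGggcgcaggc
CLDN7, chr17:7262479-7262728, minus strand: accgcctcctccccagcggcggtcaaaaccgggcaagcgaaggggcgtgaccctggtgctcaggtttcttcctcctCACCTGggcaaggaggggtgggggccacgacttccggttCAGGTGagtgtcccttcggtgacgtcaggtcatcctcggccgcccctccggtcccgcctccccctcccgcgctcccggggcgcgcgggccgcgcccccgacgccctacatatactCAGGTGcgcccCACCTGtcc
DSP, chr6:7541421-7541670, plus strand: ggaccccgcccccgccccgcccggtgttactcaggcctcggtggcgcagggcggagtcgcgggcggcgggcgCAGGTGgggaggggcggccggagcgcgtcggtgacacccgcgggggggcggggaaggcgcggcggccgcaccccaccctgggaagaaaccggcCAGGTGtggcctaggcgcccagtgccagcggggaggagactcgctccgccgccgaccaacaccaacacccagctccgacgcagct
CDH2, chr18:28177131-28177380, minus strand: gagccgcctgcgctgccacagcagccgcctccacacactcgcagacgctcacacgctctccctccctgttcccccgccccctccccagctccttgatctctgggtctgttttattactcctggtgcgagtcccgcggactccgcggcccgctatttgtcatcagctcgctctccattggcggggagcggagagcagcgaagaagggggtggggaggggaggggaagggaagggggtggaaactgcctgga

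Of the tested genes of this list with a promoter in the table, 3 of 5 with at least 2 matches in a promoter fell, and 1 of 7 with 0 or 1 match. These groups are too small to compare. The split also depends on the cut, since OCLN and SPINT1, with at most 1 match in a promoter, did not pass (edgeR adjusted p = 0.598 and 0.0626). AP1M2, with 3 matches, fell (log2 -0.37, edgeR adjusted p = 0.0224), a call lost without control replicate 1 (0.131), control replicate 3 (0.0961) or LYCAT shRNA replicate 3 (0.243). DSP and PATJ, listed as INADL in the counts (log2 -0.35, edgeR adjusted p = 0.029), held 2 matches each and fell. The INADL call was lost when LYCAT shRNA replicate 2 (0.0797) or 3 (0.247) or control replicate 1 (0.25) was left out. Neither AP1M2 nor INADL passed with DESeq2 (adjusted p = 0.136 and 0.161). CLDN7 with 4 in the promoter shown and 0 in its other one (-0.14, edgeR adjusted p = 0.11) and CRB3 with 5 (log2 -0.05, edgeR adjusted p = 0.905) did not pass. CGN, which had the largest fall named in this list, held no match in this window. These letters are a description and not evidence of binding.

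Genes whose products act on SNAI, ZEB and TWIST proteins were in 2 lists. Of 17 tested corepressors and chromatin modifiers 2 fell and 0 rose, with a median of -0.11, or 11.8% that passed against 19.1% of all tested genes. SUZ12, a Polycomb subunit, fell 1.23-fold from 191 ± 8.46 to 156 ± 4.32 CPM (edgeR adjusted p = 0.000168). The DNA methyltransferase gene DNMT1 fell 1.14-fold (edgeR adjusted p = 0.0174), a call lost without control replicate 3 (0.256) or LYCAT shRNA replicate 1 (0.127) or 3 (0.0566). Leaving out any of the 3 libraries just named left 1 gene of this list lower, and 4 were lower without control replicate 2. Of 17 kinases, phosphatases and ubiquitin ligases that set the stability of these proteins 3 rose and 3 fell, or 35.3%, with a median of -0.01. DESeq2 gave 2 higher and 1 lower. MDM2, a ubiquitin ligase of p53 that also acts on SNAI proteins, rose 1.72-fold from 158 ± 3.13 to 273 ± 6.89 CPM (edgeR adjusted p = 3.07e-19). SIAH2, another ubiquitin ligase, fell 1.71-fold from 53.5 ± 1.25 to 31.8 ± 4.73 CPM (edgeR adjusted p = 3.36e-08). COPS2, a signalosome subunit, and FBXO45, an F-box protein, each rose 1.18-fold. COPS2 did not pass without LYCAT shRNA replicate 1 (edgeR adjusted p = 0.08), nor FBXO45 without LYCAT shRNA replicate 2 (0.0911). With any 1 library left out, 2 to 3 genes of this list were higher and 1 to 2 lower, so no such fit kept all 3 falls. Only 1 gene was lower without control replicate 1 or LYCAT shRNA replicate 1.

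Signalling inputs to EMT formed a further list. Of 21 tested genes of TGF-beta, Notch and hypoxia signalling 3 rose and 7 fell, or 47.6% that passed against 19.1% of all tested genes. The list median was -0.06, and DESeq2 gave 0 higher and 5 lower. BMP7, a ligand known to oppose TGF-beta in EMT, went from 8.39 ± 1.63 to 1.56 ± 0.473 CPM, a 5.30-fold fall (edgeR adjusted p = 2.53e-08). HES1, a Notch target, fell 1.42-fold from 129 ± 5.40 to 91.2 ± 4.52 CPM (edgeR adjusted p = 4.49e-08). ID3, an inhibitor of basic helix-loop-helix factors, fell 1.25-fold from 352 ± 16.6 to 283 ± 7.15 CPM (edgeR adjusted p = 2.75e-06). ID1, ID2, SMAD7 and HEY1 also fell, while SMAD2, SMAD3 and SMAD4 did not pass. In the other direction, the receptor genes TGFBR1 (log2 0.35, edgeR adjusted p = 0.0217) and NOTCH1 (log2 0.41, 0.0419, groups overlapping) rose. These genes were named after their values were seen. HIF1A rose 1.14-fold (edgeR adjusted p = 0.0189), a call lost without control replicate 3 (0.0676) or LYCAT shRNA replicate 1 (0.126). With 1 library left out 1 to 4 genes of the list were higher and 4 to 7 lower. Of these, 4 were higher only without control replicate 2, 2 without LYCAT shRNA replicate 2 and 1 in the other 4 cases. Without LYCAT shRNA replicate 2, 4 were lower.

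Mesenchymal genes did not rise with CDH2 as a group. Of 18 tested, 2 rose and 2 fell, and the median was -0.16. The 22.2% that passed was close to the 19.1% of all tested genes. NT5E, a surface enzyme that makes adenosine, rose 6.14-fold and CD44, a hyaluronan receptor, 1.72-fold from 77.0 ± 5.51 to 132 ± 2.55 CPM (edgeR adjusted p = 2.97e-14). TGFBI, a matrix protein, fell 1.91-fold, and TAGLN, an actin-binding protein of smooth muscle, fell 2.31-fold from 15 ± 2.96 to 6.32 ± 1.58 CPM (edgeR adjusted p = 7.35e-06). Leaving out the libraries that moved VIM also moved this list. Without control replicate 3, 6 of its members were lower and 2 higher, 3 were lower without control replicate 2 or LYCAT shRNA replicate 2, and without control replicates 1 and 2 the median was 0.15 with 2 higher and 1 lower. TAGLN did not pass in that last fit (edgeR adjusted p = 0.0824).

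Among intermediate filaments and their linkers other than VIM, 1 of 12 tested genes rose and 5 fell, and the median was -0.19, with 0 higher and 3 lower without control replicates 1 and 2. With all libraries 50% of this list passed, against 19.1% of all tested genes. KRT7, a simple-epithelium keratin, went from 324 ± 10.9 to 262 ± 15.5 CPM (edgeR adjusted p = 1.21e-05). KRT8, another, went from 81.4 ± 7.66 to 59.9 ± 6.47 CPM (edgeR adjusted p = 0.000132). KRT18 fell 1.17-fold from 502 ± 40.4 to 428 ± 35.5 CPM (edgeR adjusted p = 0.00178), though its groups overlapped. KRT19 did not pass (log2 -0.08, edgeR adjusted p = 0.655). KRT18 and KRT19 were named after their values were seen. The lamin gene LMNB1 fell 1.18-fold (edgeR adjusted p = 0.000145). LMNA rose 1.12-fold (edgeR adjusted p = 0.0245), a call lost without control replicate 2 (0.0613) or LYCAT shRNA replicate 1 (0.0949) or 3 (0.165). KRT8 did not pass without control replicates 1 and 2 (0.0845).

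**Figure D5:**
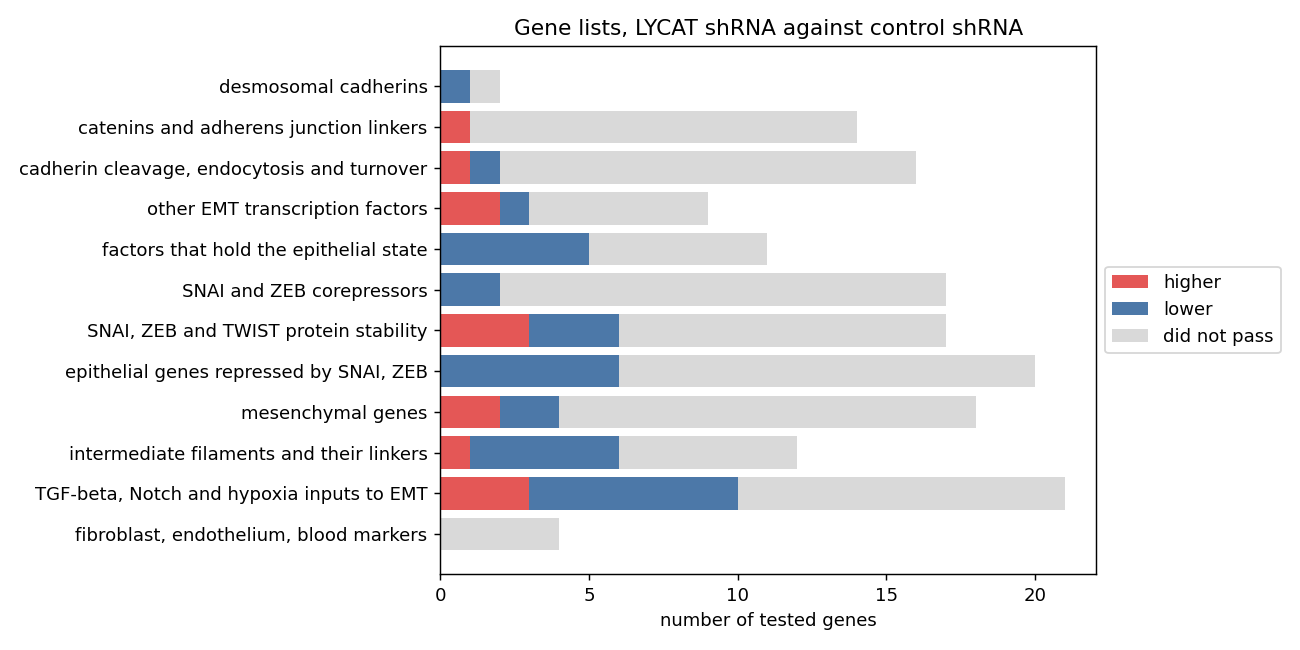
Number of tested genes in each list that were higher (red), lower (blue) or did not pass (grey) with LYCAT shRNA, edgeR adjusted p under 0.05. Of all tested genes 9.81% were higher and 9.26% lower. In the 2 epithelial lists 5 of 11 and 6 of 20 genes were lower and 0 higher.

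Genes with the most similar pattern over the 6 libraries were found by Pearson's r of log2 CPM among the 8600 tested genes averaging 10 CPM or more. The values describe these 6 libraries, which share their group differences, and carry no test. CDH1 was most like KIAA0182 (r = 0.996), CLDN7 (0.995) and TPX2 (0.994). CDH2 was most like CTNNBL1 (0.998), AKR1B1 (0.998), an aldose reductase, and EPDR1 (0.996), each of which was higher in every LYCAT shRNA library. CDH3 was most like TPM1 (0.997), SLC22A18 (0.99) and MTMR9 (0.977). VIM was most like SIN3A (0.996), SLC2A3 (0.993) and SIAH1 (0.992). SLC2A3, a glucose transporter, also swung widely, though less than VIM. It stood at 25.1, 20.7 and 9.11 CPM in the controls and 9.78, 2.90 and 7.71 CPM with LYCAT shRNA. Like VIM, it did not pass (log2 -1.36, edgeR adjusted p = 0.191).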

How the data were processed

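Expression was measured by RNA sequencing in 6 libraries of H2122 cells, 3 for each shRNA. The authors deposited 1 table of raw counts per gene symbol. The tools listed, per the submitters' processing notes, are featureCounts 1.5.1, Bowtie2, BWA 0.7.15 and bcl2fastq 2.17, and the builds are hg19 and mm10. Strand use, and the aligner and build behind the table, are not given in the sources used here. Columns named cycat were read as the LYCAT shRNA libraries, a misspelling, with the replicate number from the same name.

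Low counts were removed with filterByExpr in edgeR 4.0.16 (R 4.3.3), leaving 11097 genes to test. Libraries were scaled with TMM factors. Groups were compared with edgeR's quasi-likelihood test (robust=TRUE, group as the only term), with Benjamini-Hochberg adjustment over all tested genes and a threshold of 0.05. The SE is the log2 fold change divided by the square root of F. A prior count of 2 was used for log2 CPM. The fit was tested on simulated data. These held no swing of single libraries shared between genes, as seen for VIM and the matrix genes, so the test does not bear on those calls.

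The members and lists were chosen with earlier results of these data known, so list counts are descriptions. All 9 members are named, with LCLAT1, for each list the changed gene of lowest adjusted p per direction plus at most 2 further changed genes (the 2 most abundant tested if none changed), a few others named with values in view, and the 3 genes most like CDH1, CDH2, CDH3 and VIM. Alternatives were other scalings and filters, DESeq2 1.42.0, limma-voom (limma 3.58.1), robust=FALSE, a replicate block and libraries left out.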

Additional observations from a re-analysis of the deposited data

How the results depend on the processing

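CDH2, LCLAT1 and the shift between CDH2 and CDH1 kept their direction and, where tested, their call under every alternative run. Of 7 tested members 3 passed, and 1 to 3 passed with 1 library left out, where log2 values ran from -0.328 to -0.194 for CDH1, 0.871 to 1.58 for SNAI2, -0.0434 to 0.297 for SNAI1, 0.415 to 1.10 for ZEB1 and -1.92 to -1.23 for VIM. SNAI1 changed sign without LYCAT shRNA replicate 1. With DESeq2 1193 of all tested genes passed in place of 2117 and 1 member, CDH2, with CDH1 at -0.263 and SNAI2 at 1.12, neither of which passed. VIM passed at -1.57 with no filter on low counts and with robust=FALSE, and at -1.64 with limma-voom. Without control replicates 1 and 2, 1129 genes and 1 member passed, CDH1 (-0.266) and SNAI2 (1.49) did not, and CDH3 (0.387) and COL1A2 (2.02) changed sign; that fit has fewer samples and assumes the lone control to vary like the other group. In the other cases the cause was not tested. Scaled by library totals 966 genes rose and 1127 fell, against 1089 and 1028. No pairing of libraries by replicate number was seen (correlation of deviations 0.00509, -0.0645 and -0.0477 for replicates 1 to 3), but so few libraries cannot exclude it. With a replicate block 2046 genes and 3 members passed, CDH1, CDH2 and SNAI2 among them. ZEB1, SNAI2, CDH3 and VIM were measured with few counts, which limits the precision of their folds, and a mean of at least 5 CPM left 4 members to test. AP1M2, DSC2, DNMT1, ESRP1, FBXO45, GRHL2, HIF1A, INADL, LMNA and PRSS8 also did not pass with DESeq2, nor AP1M2, DSC2, DSP, ESRP1, ETS1, FBXO45, GRHL2, INADL, KRT8, LMNA, PRSS8 and TAGLN without control replicates 1 and 2. By Spearman's rho at least 3 genes tied as most like each of CDH1, CDH2, CDH3 and VIM, so it does not single out the genes named.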
